A study of Mus musculus with 6 samples.

Results

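The killer lectin receptors are membrane proteins by which natural killer (NK) cells and some T cells recognise other cells. The genes described here are Klra1, Klra7, Klra8, Klrb1c, Klrk1, Klrd1, Klre1, Klrc1 and Klrg1, together with Ncr1, a natural cytotoxicity receptor of NK cells. They were taken by symbol from the deposited expression table, which held all 10 among 18848 genes. They are described in the 132 NK cells, 559 CD8 T cells, 169 CD4 T cells and 39 regulatory T cells of the deposited annotation, 899 of 5749 cells in all.

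The cells came from 12 tumours of the prostate cancer line PPS-ICBR, which resists checkpoint blockade, grown in C57Bl6 mice, with 3 tumours per treatment. The BD+ICB mice received a diet with 1,3-butanediol (BD) and antibodies to PD-1 and CTLA-4 (immune checkpoint blockade, ICB, 0.2 mg). The ICB mice received the antibodies without that diet. The BD mice received the butanediol diet without antibodies, and the SD mice a standard diet. The BD+ICB and ICB tumours were pooled in 1 droplet library and the BD and SD tumours in another, with a hashtag per tumour. The diets can therefore be compared within a library, whereas blockade and library cannot be told apart. Each tumour is 1 replicate, and since the labels name tumours and not animals, p-values measure the spread between these tumours. Cells held between 4545 and 10817 UMIs (counted RNA molecules) at the median of a tumour. The sources used here give neither animal age nor how many tumours came from a mouse.

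NK receptors work as a balance of inhibition and activation. The Ly49 receptors, encoded by the Klra genes in the mouse, and the heterodimer of CD94 (Klrd1) with NKG2A (Klrc1) read class I major histocompatibility molecules. Ly49A (Klra1), Ly49G2 (Klra7) and NKG2A carry inhibitory tails. Ly49H (Klra8) activates and is known for binding a cytomegalovirus protein. NKG2D (Klrk1) activates on binding stress-induced ligands and signals through the adaptor DAP10 (Hcst). NK1.1 (Klrb1c) is the classical surface marker of NK cells in this strain, NKp46 (Ncr1) is an activating receptor, KLRE1 pairs with KLRI chains in the mouse, and KLRG1 is an inhibitory receptor for cadherins. Individual NK cells are known to carry different subsets of Ly49 receptors.

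Of the 10 genes, 9 lie on chromosome 6 and Ncr1 lies on chromosome 7 (GRCm38.p6, RefSeq). Klrb1c is at chr6:128778485-128788641. Klre1 (chr6:129559365-129585828), Klrd1 (chr6:129588092-129598775), Klrk1 (chr6:129610323-129623903) and Klrc1 (chr6:129666015-129682852) follow in that order, and Klra8 (chr6:130115226-130129898), Klra7 (chr6:130218605-130233322) and Klra1 (chr6:130363918-130386874) come after them. Klrg1 lies before Klrb1c at chr6:122270596-122282833, and Ncr1 is at chr7:4337715-4345184.

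RefSeq promoter windows, from 250 bases before to 50 bases after a start site, were at hand for 8 of the 10 genes. Shown are those of an NK-restricted gene (Ncr1, chr7:4337465-4337764, plus strand), of receptors found in both NK and T cells (Klrk1, chr6:129623815-129624114, and Klrc1, chr6:129678924-129679223, both minus strand) and of a pair of Ly49 genes (Klra7, chr6:130233273-130233572, and Klra8, chr6:130129849-130130148, both minus strand). Capitals mark TGTGGT or its reverse complement ACCACA, the RUNX core, and GTGTGA or its reverse complement TCACAC, the T-box core.
Ncr1: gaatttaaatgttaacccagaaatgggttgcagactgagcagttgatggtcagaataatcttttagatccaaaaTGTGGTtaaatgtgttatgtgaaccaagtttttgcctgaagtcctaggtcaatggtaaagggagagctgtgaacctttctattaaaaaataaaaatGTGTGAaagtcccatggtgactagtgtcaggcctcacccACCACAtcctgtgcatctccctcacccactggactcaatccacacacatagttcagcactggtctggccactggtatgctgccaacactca
Klrk1: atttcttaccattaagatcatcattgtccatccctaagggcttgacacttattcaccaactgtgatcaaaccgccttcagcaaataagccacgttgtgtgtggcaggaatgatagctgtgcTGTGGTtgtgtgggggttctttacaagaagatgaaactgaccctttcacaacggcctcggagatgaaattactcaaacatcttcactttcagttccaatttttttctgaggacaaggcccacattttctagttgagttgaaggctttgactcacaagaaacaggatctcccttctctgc
Klrc1: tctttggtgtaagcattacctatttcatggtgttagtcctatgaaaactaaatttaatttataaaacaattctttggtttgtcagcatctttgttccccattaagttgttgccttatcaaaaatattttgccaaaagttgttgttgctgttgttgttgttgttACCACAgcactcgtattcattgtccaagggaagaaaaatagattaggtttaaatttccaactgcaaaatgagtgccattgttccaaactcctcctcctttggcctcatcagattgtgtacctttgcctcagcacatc
Klra7: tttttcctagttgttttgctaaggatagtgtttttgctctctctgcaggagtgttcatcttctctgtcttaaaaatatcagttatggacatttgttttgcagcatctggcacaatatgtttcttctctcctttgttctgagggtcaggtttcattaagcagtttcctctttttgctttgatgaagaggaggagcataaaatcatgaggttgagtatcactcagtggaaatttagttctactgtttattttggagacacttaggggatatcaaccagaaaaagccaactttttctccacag
Klra8: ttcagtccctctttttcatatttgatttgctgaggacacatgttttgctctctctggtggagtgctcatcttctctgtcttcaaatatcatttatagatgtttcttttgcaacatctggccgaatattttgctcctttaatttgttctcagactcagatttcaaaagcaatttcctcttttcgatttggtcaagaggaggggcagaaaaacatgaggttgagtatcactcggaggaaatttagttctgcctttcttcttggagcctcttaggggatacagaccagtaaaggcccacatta
The RUNX letters were present in 2 copies in the Ncr1 window and in 1 copy in each of the Klrk1 and Klrc1 windows, and 16.8% of 32851 windows of this length held them. The T-box letters were present once in the Ncr1 window, against 14.5% of all windows. Of the 8 genes with a window, 6 held the RUNX letters (Ncr1, Klrk1, Klrc1, Klrb1c, Klre1 and Klra1) and 3 the T-box letters (Ncr1, Klre1 and Klra1). The Ly49 genes differed in this, since Klra1 held both, whereas neither window of Klra7 nor of Klra8 held either. The ETS core GGAAGT or its reverse complement ACTTCC, also searched, was found in Klrb1c alone of the 8, against 23.8% of all windows. These matches are descriptions of letters, not of binding. RefSeq gives 2 windows each for Klra7 and Klra8. The pair shown was identical at 231 of 311 aligned positions (74.3%), and the other 3 pairings at 39.7 to 56.2%. Because Ly49 genes resemble each other, reads may be split between them, and their individual counts are uncertain to that extent.

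The classes were checked against their markers. Among NK cells 93.2% had a UMI of the adaptor Tyrobp and 43.9% of the NK transcription factor Eomes. Of the T cell genes, Cd3e was found in 12.1% of them, Trac in 22.0%, Trdc in 24.2%, Trbc2 in 47.7% and Trbc1 in 85.6%. Most cells of the class thus held a T cell receptor gene transcript, and Trbc1 was found in 42.6% of CD8 T cells. Among CD8 T cells 82.3% had a Cd8a UMI and 4.29% a Cd4 UMI. Among CD4 T cells 84.0% had a Cd4 UMI and 14.8% a Cd8a UMI. Among regulatory T cells 66.7% had a Foxp3 UMI, 89.7% an Il2ra UMI and 43.6% a Cd4 UMI. Median UMIs per cell were 6278 in NK cells, 6263 in CD8, 6065 in CD4 and 3434 in regulatory T cells. Of the 899 cells, 3 carried a barcode found in both libraries.

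The 10 genes fell into 3 patterns over the 19 deposited classes. With counts summed over tumours and scaled to counts per 1000000 UMIs of a class (CPM), 6 genes were highest in NK cells, 3 in CD8 T cells and 1 in regulatory T cells. Levels below are means over tumours with at least 10 cells of the class, with the SD, and classes were not tested against each other because the classes were drawn from the same transcripts.

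Klra7 averaged 321 ± 93.2 CPM in NK cells (SD, n = 6 tumours) and 4.44 ± 7.63 CPM in CD8 T cells (n = 8). Klra8 averaged 233 ± 69.6 CPM in NK cells and 1.36 ± 3.84 CPM in CD8 T cells. Both were higher in NK cells than in CD8 T cells in 5 of 5 tumours with enough cells of both. Klra1 averaged 67.3 ± 88.4 CPM in NK cells (range 0 to 239 CPM), so that its spread over tumours exceeded its mean.

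Klrb1c averaged 190 ± 56.5 CPM in NK cells, 9.80 ± 11.4 CPM in CD8 T cells and 2.41 ± 3.83 CPM in CD4 T cells. Ncr1 averaged 67.5 ± 42.2 CPM in NK cells and 2.01 ± 3.13 CPM in CD8 T cells, and no Ncr1 UMI was counted in 169 CD4 T cells, which allows a share of cells with a UMI of up to 1.78%. Klrb1c and Ncr1 were higher in NK than in CD8 T cells in 5 of 5 tumours.

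The CD94 and NKG2D genes did not separate the classes in this way. Klrd1 averaged 702 ± 120 CPM in NK cells, 688 ± 283 CPM in CD8 T cells and 434 ± 154 CPM in CD4 T cells. Its NK and CD8 levels differed by less than their spread, and NK cells were higher in 3 of 5 tumours. Klrk1 averaged 260 ± 55.6 CPM in NK cells, 288 ± 127 CPM in CD8 T cells and 161 ± 86.9 CPM in CD4 T cells. Its order between NK and CD8 T cells changed from tumour to tumour, with NK cells higher in 2 of 5, while CD8 T cells exceeded CD4 T cells in 6 of 6 tumours for both genes.

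Klre1 and Klrc1 went in opposite directions. Klre1 averaged 363 ± 67.3 CPM in NK cells, 131 ± 75.6 CPM in CD8 T cells and 37.3 ± 33.1 CPM in CD4 T cells, in the same order in every tumour that had enough cells of these classes. Klrc1 averaged 119 ± 31.3 CPM in NK cells, 254 ± 118 CPM in CD8 T cells and 248 ± 112 CPM in CD4 T cells. It was lower in NK than in CD8 T cells in 4 of 5 tumours, and its CD8 and CD4 levels differed by less than their spread.

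Klrg1 stood apart. It was highest in regulatory T cells, where 32 UMIs gave 153 CPM (95% Poisson interval 105 to 216), against 16.5 CPM (9.44 to 26.8) in NK cells and 2.39 CPM (0.494 to 6.99) in CD4 T cells. These intervals cover counting error only. Of 39 regulatory T cells, 15 had a Klrg1 UMI (38.5%), compared with 6.06% of NK cells and 1.25% of CD8 T cells.

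**Figure D1:**
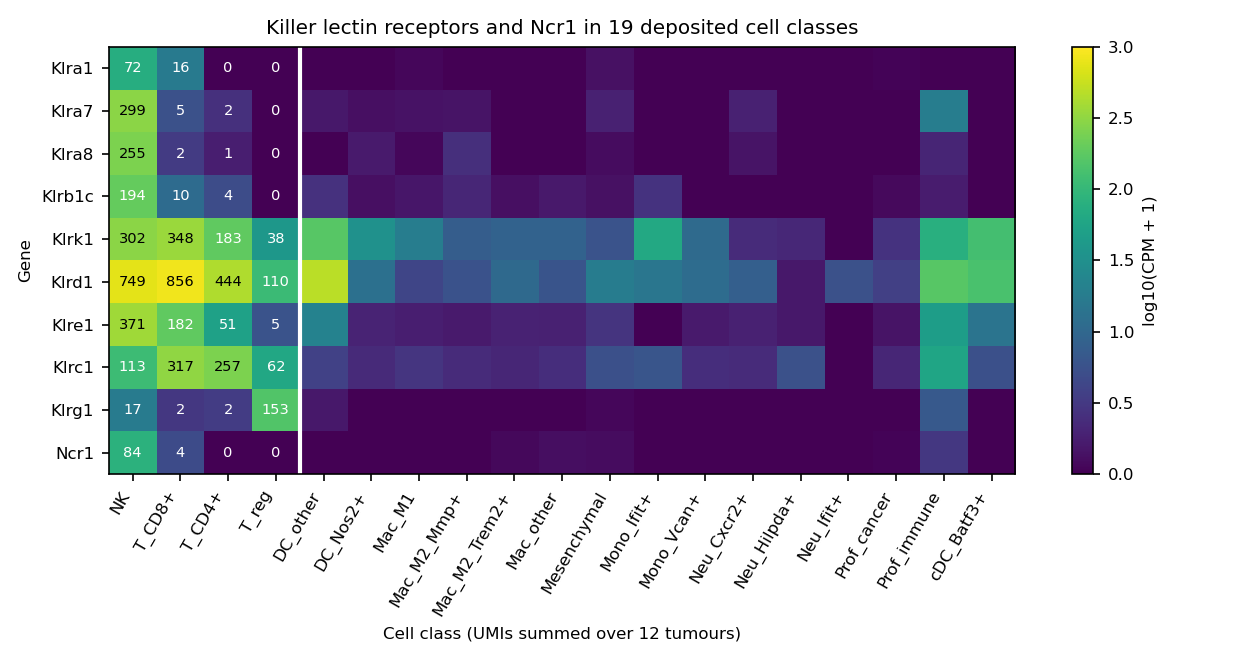
Heat map of the 10 genes (rows) in 19 cell classes (columns), coloured by log10(CPM + 1) of UMIs summed over 12 tumours, with CPM printed for NK and T cell classes, which stand left of the white line. Klra7, Klra8, Klrb1c and Ncr1 are bright in NK cells alone, Klrd1 (749 CPM in NK and 856 CPM in CD8 T cells) and Klrk1 extend to T cells and the class DC _other, and Klrg1 peaks in T_reg at 153 CPM.

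Counted per cell, 86.4% of NK cells had a Klrd1 UMI, 79.5% a Klre1 UMI, 68.9% a Klrk1 UMI and 66.7% a Klrb1c UMI. Klra7 was found in 45.5% of NK cells (exact 95% binomial interval 36.8 to 54.3%), Klrc1 in 40.9%, Ncr1 in 35.6%, Klra8 in 34.8% and Klra1 in 15.2%. Trem2+ macrophages, which should lack these receptors and were deeper at a median of 7966 UMIs, gave the background. There no UMI of Klra1, Klra7, Klra8 or Klrg1 was counted, which allows up to 0.396% of the 757 cells, and the share was 0.132% for Ncr1, 0.264% for Klrb1c and 0.396% for Klrc1. It was higher for Klrd1 (2.51%) and Klrk1 (5.02%).

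Outside NK and T cells Klrd1 and Klrk1 were prominent in the class DC _other, where 80.0% of 135 cells had a Klrd1 UMI (482 CPM) and 65.2% a Klrk1 UMI (163 CPM). Only 0.741% of those cells had a Klrc1 UMI, and none a Klra1, Klra8 or Ncr1 UMI, which allows up to 2.22%. These cells were deeper, with a median of 12146 UMIs. Thinned to 2000 UMIs each, 51.9% of DC _other cells kept a Klrd1 UMI, against 65.6% of NK cells and 72.4% of CD8 T cells. In the class cDC_Batf3+, 70.6% of 17 cells had a Klrk1 UMI.

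The inhibitory partner genes were found together in T cells, and so were other pairs of members. Of CD8 T cells with a Klrc1 UMI 91.5% (interval 88.4 to 94.1%) also had a Klrd1 UMI, against 73.2% (65.6 to 80.0%) of those without. In CD4 T cells the shares were 81.6% (72.5 to 88.7%) and 38.0% (26.8 to 50.3%). In NK cells Klrd1 was found in 83.3% of cells with and 88.5% of cells without a Klrc1 UMI. Klrk1 was found in 80.6% of CD8 T cells with and 43.9% without a Klrc1 UMI, and in 55.1% and 15.5% of CD4 T cells. Klrd1 was found in 95.7% of CD8 T cells with and 78.5% without a Klre1 UMI, and in 100% and 53.4% of CD4 T cells. The pattern was therefore not particular to the partner genes. Cells with a Klrc1 UMI were deeper, with medians of 6722 against 4525 UMIs in CD8 T cells and 6737 against 5029 UMIs in CD4 T cells, and the part of depth in this was not tested.

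The 3 Ly49 members were spread unevenly over NK cells. Of 132 NK cells 52 (39.4%) had no UMI of Klra1, Klra7 or Klra8, 38 (28.8%) had UMIs of 1 of them, 38 of 2 and 4 of all 3. Klra7 was found in 29 of 46 NK cells with a Klra8 UMI (63.0%, interval 47.5 to 76.8%), against 31 of 86 without (36.0%, 26.0 to 47.1%). The cells with Klra8 were deeper (7802 against 5857 median UMIs). The part of depth, or of reads split between these similar genes, was not tested. Klrc1 showed the other order, being found in 18 of 60 NK cells with a Klra7 UMI (30.0%, 18.8 to 43.2%), against 36 of 72 without (50.0%, 38.0 to 62.0%), although the cells with Klra7 were the deeper ones (7619 against 5783 median UMIs). Cells pooled over tumours are not replicates, so these shares carry no test.

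**Figure D2:**
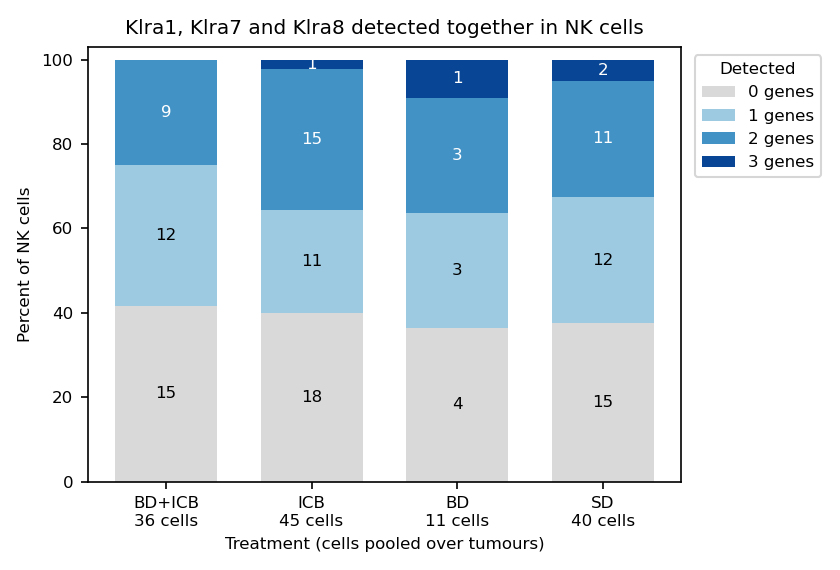
Stacked bars of the percent of NK cells, pooled over tumours, in which 0, 1, 2 or 3 of the genes Klra1, Klra7 and Klra8 were detected, for each treatment, with the number of cells printed in each segment. The share without any of the 3 was 41.7% in BD+ICB, 40.0% in ICB, 36.4% in BD and 37.5% in SD.

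NK cells with 2 of the 3 genes numbered 9 of 36 in BD+ICB (25.0%, interval 12.1 to 42.2%) and 15 of 45 in ICB (33.3%). They numbered 3 of 11 in BD (27.3%, 6.02 to 61.0%) and 11 of 40 in SD (27.5%, 14.6 to 43.9%). These intervals cover counting error over pooled cells, and the shares were not tested over tumours.

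The genes whose pattern over the 19 classes was most like that of each receptor were sought by Pearson's r of log2(CPM + 1), over 12912 genes with at least 50 UMIs. Ncr1 was most like Klra9 (r = 0.986), Klra8 (0.954) and Klra7 (0.949), whereas the 3 genes most like Klrb1c or Klra1 included no other member. Genes counted mostly in NK cells necessarily resemble each other in this comparison. Klra8 was most like Klra9 (0.960), Klra7 most like Ncr1, Klrb1c most like Qrfp (0.941) and Klra1 most like Samd3 (0.953). Klrc1 was most like the cytokine gene Ifng (0.977), followed by Cd96 (0.972). Klrd1 was most like Chn2 (0.956) and Klre1 most like Klri2 (0.952), Klrk1 most like P2ry10 (0.937) and Klrg1 most like Gm28112 (0.975), followed by Ikzf2 (0.916), which regulatory T cells express. All points share the same libraries, and these values are descriptions.

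In NK cells no member passed the test for the butanediol diet under blockade. Tumours with at least 10 NK cells numbered 2 in BD+ICB and 2 in ICB, and 8 of the 10 members had enough counts to be tested. None passed the threshold, and none had an unadjusted p under 0.05 (edgeR's quasi-likelihood test, Benjamini-Hochberg adjusted p of 0.05 over 1833 genes), where 0.327% of all genes passed. None passed with DESeq2. In simulated data the fit for this comparison recovered 29% of 2-fold changes, so changes of that size could be missed. The smallest adjusted p was 0.868, for Klre1, and the median log2 fold change of the 8 members was 0.08, against -0.01 for all genes tested.

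Klra7 had 199, 434 and 262 CPM in the NK cells of the BD+ICB tumours, against 232, 154 and 394 CPM in the ICB tumours. Klrd1 had 877, 573 and 545 CPM in BD+ICB, against 808, 1325 and 608 CPM in ICB. For both genes the groups overlapped, and their log2 fold changes were 0.13 ± 0.33 (SE) and 0.03 ± 0.27. Klrb1c had 226, 198 and 175 CPM in BD+ICB, against 221, 247 and 239 CPM in ICB.

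Klre1 had 398, 419 and 393 CPM in BD+ICB, against 259, 503 and 370 CPM in ICB, and the groups overlapped once the ICB tumour with 8 cells was counted. Ncr1 had 127, 36.7 and 153 CPM in BD+ICB, against 80.8, 154 and 11.9 CPM in ICB. Its values ranged widely in both groups. The 95% interval of the log2 fold change ran from -0.49 to 0.55 for Klrd1 and from -0.94 to 1.99 for Ncr1.

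**Figure D3:**
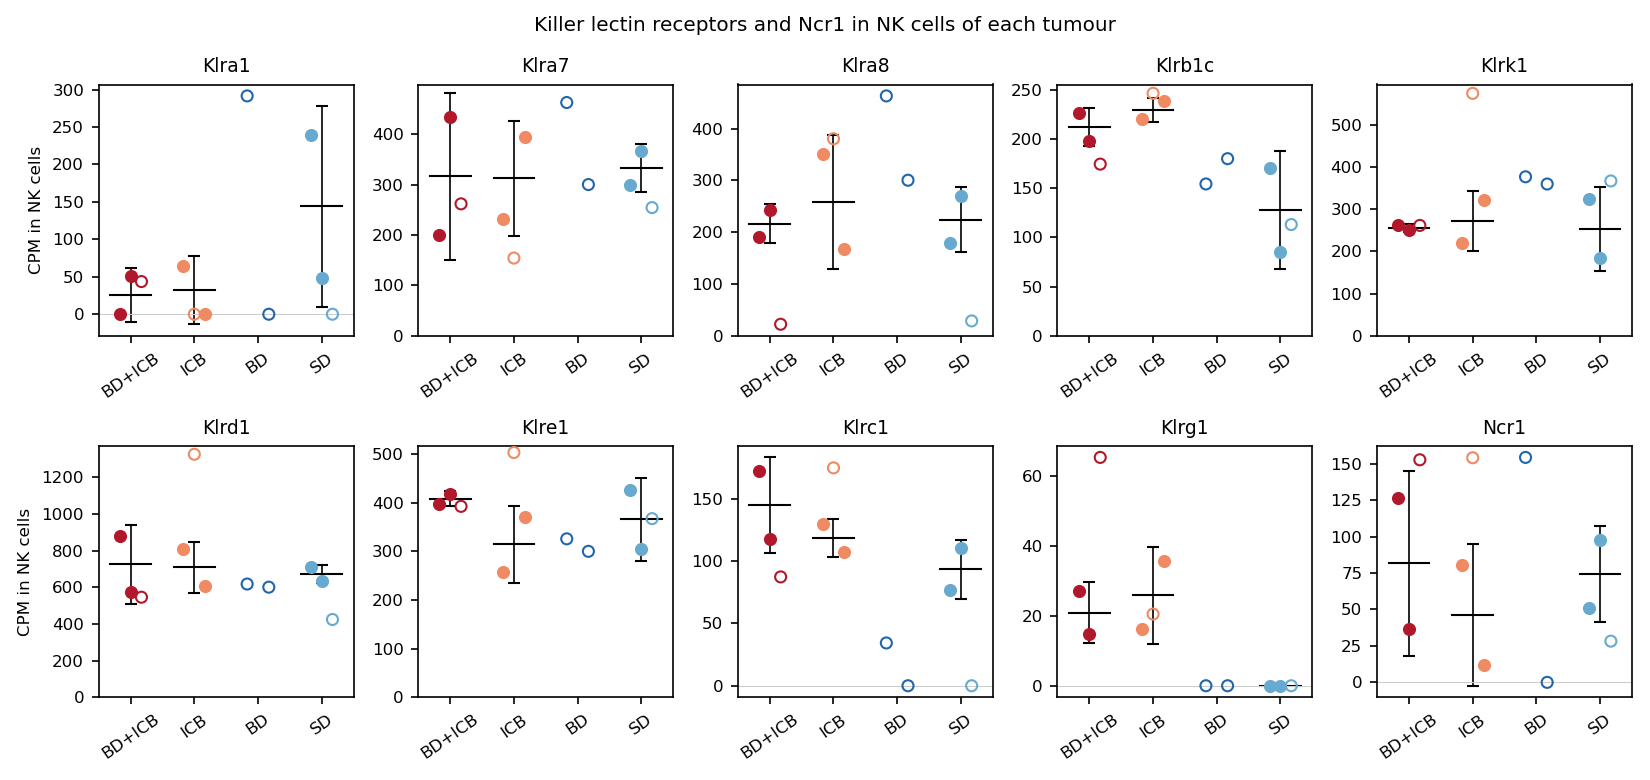
CPM of each gene in the NK cells of each tumour, by treatment; filled points are tumours with at least 10 NK cells, open points those with fewer, and bars give the mean and SD of the filled points. The groups overlap for most genes, and Klra1 ranges from 0 to 291 CPM.

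Nor did a member pass in NK cells of ICB against SD tumours, a contrast that also crosses the libraries. Of all genes 5.35% were called, and the smallest adjusted p of the 8 members was 0.565. That was Klrb1c, with 221, 247 and 239 CPM in ICB, against 171, 85.6 and 113 CPM in SD, and a log2 fold change of 0.64 ± 0.40. All 3 ICB tumours were above all 3 SD tumours, but the difference did not pass the threshold. Over the tumours with at least 10 NK cells, 2 in each group, ICB lay above SD without overlap for 29.6% of the 1833 genes tested. Klra1 and Klrg1 were too low to be tested. Klra1 had 64.6, 0 and 0 CPM in ICB and 239, 48.9 and 0 CPM in SD. Klrg1 had 16.2, 20.5 and 35.8 CPM in ICB, from 8 UMIs in all, and no UMI in 40 SD cells.

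In CD4 T cells the NKG2A gene Klrc1 was higher in BD+ICB than in ICB tumours. It had 314, 296 and 410 CPM in the BD+ICB tumours, against 180, 182 and 104 CPM in the ICB tumours, and the groups did not overlap. The mean was 340 ± 61.3 CPM in BD+ICB and 155 ± 44.3 CPM in ICB (SD, n = 3 each), a log2 fold change of 1.09 ± 0.25 (SE) with an edgeR adjusted p of 0.0477 over 2308 genes. Of these genes 0.910% were called. Without overlap, 7.50% were higher in BD+ICB than in ICB and 8.97% lower. Klrc1 was 1 of the 3 members tested.

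The Klrc1 call in CD4 T cells lay close to the threshold. It was lost with DESeq2 (adjusted p = 0.123), with RLE size factors (0.0527), with at least 20 cells per tumour (0.0620), and without any of the tumours except ICB replicate 2 (0.0969 to 0.167), while the log2 fold change stayed between 0.87 and 1.31 over all settings. A UMI of Klrc1 was found in 66 of 95 CD4 T cells in BD+ICB (69.5%) and 28 of 64 in ICB (43.8%).

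Klrd1 and Klrk1 did not pass in CD4 T cells, but both passed under 4 alternatives. Klrd1, the NKG2A partner, had 517, 525 and 615 CPM in BD+ICB, against 203, 437 and 305 CPM in ICB, with no overlap, as for 7.50% of the genes tested (log2 fold change 0.84 ± 0.23, edgeR adjusted p = 0.116). Klrk1 had 225, 244 and 171 CPM in BD+ICB, against 34.8, 218 and 74.4 CPM in ICB, and the groups overlapped through ICB replicate 2 (1.14 ± 0.50, adjusted p = 0.474). Without ICB replicate 2 the log2 fold change was 2.08 for Klrk1 (adjusted p = 0.00178) and 1.14 for Klrd1 (0.0101). With at least 20 cells per tumour it was 2.17 for Klrk1 (0.00123) and 1.07 for Klrd1 (0.0197). Both also passed with no filter on low counts (0.0141 and 0.0113) and with a stricter hashtag rule (0.0377 and 0.0382). Klre1 did not pass the filter on low counts and had 76.3, 82.1 and 11.4 CPM in BD+ICB, against 11.6, 27.3 and 14.9 CPM in ICB.

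Other transcripts moved with the same groups. Of 9 myeloid marker genes, none of which was at 0 in either group, 4 were tested in CD4 T cells and none passed, but their summed level was 162 to 492 CPM in BD+ICB and 1141 to 3959 CPM in ICB, without overlap. Summed T cell markers were 6998 to 8207 CPM in BD+ICB and 6205 to 6652 CPM in ICB, also without overlap, and none of the 12 tested passed. Of single genes, 8.97% were lower and 7.50% higher in BD+ICB without overlap. Il2ra, which encodes a chain of the interleukin-2 receptor and is a regulatory T cell marker, rose (log2 fold change 2.01 ± 0.43, edgeR adjusted p = 0.0477). So did Jund, of the list of genes that respond to dissociation (0.59 ± 0.14, adjusted p = 0.0477). Their lists as a whole overlapped between the groups. Summed regulatory T cell markers were 1026 to 1132 CPM in BD+ICB and 856 to 1190 CPM in ICB. Summed dissociation genes were 3449 to 4542 CPM in BD+ICB and 3431 to 4427 CPM in ICB. Cd8a, found in 22.4% of CD4 T cells with a Klrc1 UMI and 4.23% of those without, had 221, 117 and 56.9 CPM in BD+ICB and 11.6, 164 and 52.1 CPM in ICB (log2 fold change 1.08 ± 0.82, edgeR adjusted p = 0.715). The part of these transcripts in the Klrc1 difference was not tested.

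For the diet the same genes did not pass in CD8 T cells, except Klrd1 when 1 tumour was left out. Klrc1 had 321, 428 and 287 CPM in BD+ICB, against 237, 328 and 230 CPM in ICB (log2 fold change 0.40 ± 0.21, edgeR adjusted p = 0.627). Klrd1 had 857, 933 and 909 CPM in BD+ICB, against 1035, 568 and 401 CPM in ICB (0.41 ± 0.34, adjusted p = 0.822). The BD+ICB tumours were close together for Klrd1, and the ICB tumours ranged on both sides of them. Without ICB replicate 1, the one above them, the log2 fold change of Klrd1 was 0.88 and passed (adjusted p = 0.0184). Klrk1 had 311, 476 and 282 CPM in BD+ICB, against 321, 362 and 148 CPM in ICB (0.35 ± 0.44, adjusted p = 0.896). Klre1 had 125, 296 and 125 CPM in BD+ICB, against 176, 97.8 and 85.6 CPM in ICB (0.59 ± 0.43, adjusted p = 0.817). Summed myeloid markers in these cells were 206 to 287 CPM in BD+ICB and 685 to 2377 CPM in ICB, without overlap, and none of the 6 tested passed. Of the 5375 genes tested, 9.12% were lower in BD+ICB without overlap. The part of the myeloid markers in the CD8 T cell values was not tested.

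**Figure D4:**
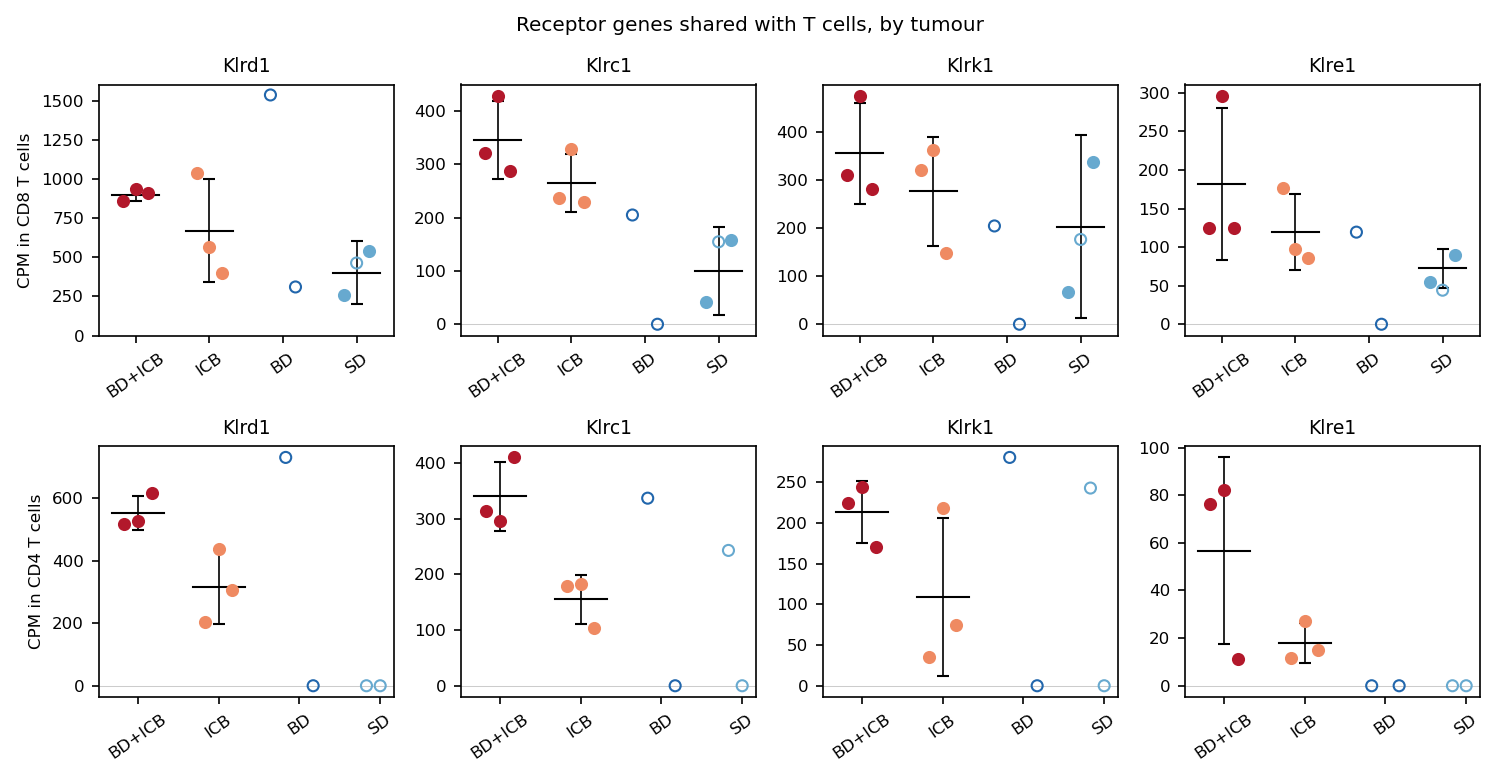
CPM of Klrd1, Klrc1, Klrk1 and Klre1 in CD8 T cells (upper row) and CD4 T cells (lower row) of each tumour, by treatment; filled points are tumours with at least 10 cells, open points those with fewer, and bars give the mean and SD of the filled points. In CD4 T cells the BD+ICB tumours lie above the ICB tumours for Klrc1 (296 to 410 against 104 to 182 CPM) and Klrd1 (517 to 615 against 203 to 437 CPM).

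In CD8 T cells of ICB against SD tumours Klrc1 had 237, 328 and 230 CPM in ICB, against 40.8, 155 and 158 CPM in SD. The log2 fold change was 1.50 ± 0.43, against a median of 0.17 for all genes tested, and its edgeR adjusted p of 0.0862 did not pass. Leaving out SD replicate 3 made it 2.58 with an adjusted p of 0.0328, and leaving out SD replicate 1 made it 0.78 with 0.566. SD replicate 2, with 8 CD8 T cells, was below the minimum of 10 cells. With at least 5 cells per tumour, where it enters, the log2 fold change was 1.30 and passed (adjusted p = 0.0249), as it did with no filter on low counts (1.66, 0.00345). In this contrast the T cell markers moved too, since 4 of 12 tested T markers rose and their summed level was 5962 to 7389 CPM in ICB and 3591 to 3947 CPM in SD. Summed B cell markers were 0 to 12.1 CPM in ICB and 191 to 271 CPM in SD. Their part in the Klrc1 values was not tested.

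Klra1 was the only member called in CD8 T cells, where 0.874% of 5375 genes were called in BD+ICB against ICB and 2.2% in ICB against SD. It had 9, 36 and 14 UMIs in the BD+ICB tumours, none in the 215 cells of the ICB tumours, and 1, 0 and 4 UMIs in the SD tumours. Against a floor of 3 UMIs over the ICB group, pooled BD+ICB cells were 13.0-fold higher (26.6 CPM from 59 UMIs) and pooled SD cells 15.0-fold higher (30.7 CPM from 5 UMIs). These ratios take the counts of BD+ICB and SD as exact, so they are not lower limits. The SD value also includes SD replicate 2, whose 8 cells were too few for the test. The floor treats UMIs as independent, whereas 1 cell held 30 of them. Counted by cell, 4 of 303 BD+ICB cells had a Klra1 UMI, and a count of 0 in the 215 ICB cells allows up to 3 cells. The cell counts alone therefore do not separate these 2 groups. The edgeR adjusted p was 0.00308 for BD+ICB against ICB and 0.0185 for ICB against SD. Without BD+ICB replicate 2 the adjusted p of the first was 0.0626. That of the second was 0.0523 without ICB replicate 1, 0.0627 without SD replicate 1 and 0.393 without SD replicate 3.

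These counts came from very few cells. Of the CD8 T cells, 4 held all 59 Klra1 UMIs of BD+ICB, with 9, 6, 30 and 14 UMIs, and 2 held all 5 of SD. None of these 6 cells had a Cd8a or Cd8b1 UMI, whereas 83.2% of the other 553 cells had a Cd8a UMI, although the 6 were deeper (median 13102 against 6247 UMIs). Trac was found in 5 of the 6, and Trdc, at 19 UMIs, in the cell with the most Klra1, which also had 5 Ncr1 UMIs. In CD8 T cells with a Cd8a UMI, no Klra1 UMI was counted in any group.

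With NK and T cells merged, 10 members could be tested in 3 tumours per group. In ICB against SD, where 2.48% of 7648 genes were called, Klra7 fell, with a log2 fold change of -2.12 ± 0.30 (edgeR adjusted p = 1.03e-04), and Klrc1 rose by 1.11 ± 0.24 (adjusted p = 0.00474). The makeup of the merged cells moved with these groups: NK cells were 45 of 335 cells in ICB (13.4%) and 40 of 83 in SD (48.2%), while in NK cells alone Klra7 had a log2 fold change of -0.29 ± 0.33. The Klrc1 call was lost without SD replicate 1 (adjusted p = 0.119), with at least 5 cells per tumour (0.111) and with a separate hashtag demultiplexing of the matrices (0.183). In BD+ICB against ICB no member passed (0.876% of genes were called), with Klrc1 at 0.57 ± 0.17 (adjusted p = 0.134). Klrc1 passed there with no filter on low counts (0.0266) and without ICB replicate 2 (0.0256). Klra1 did not pass in either contrast, but did with no filter on low counts, in BD+ICB against ICB (0.0158) and in ICB against SD (4.53e-08), and with the stricter hashtag rule in ICB against SD (0.0295).

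Among merged T cells Klra1 was again called in both contrasts, from the 6 cells described above, where 0.559% of 7160 genes were called in BD+ICB against ICB and 1.13% in ICB against SD. The call in ICB against SD was lost without ICB replicate 1 (adjusted p = 0.0937), BD replicate 1 (0.0540), SD replicate 1 (0.0503) or SD replicate 3 (0.398). Klrc1 had a log2 fold change of 0.55 ± 0.18 in BD+ICB against ICB (edgeR adjusted p = 0.224) and of 1.06 ± 0.29 in ICB against SD (adjusted p = 0.0514). The value in ICB against SD passed with no filter on low counts (0.00897), with a replicate block (0.0353) and without ICB replicate 3 (0.0170).

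**Figure D5:**
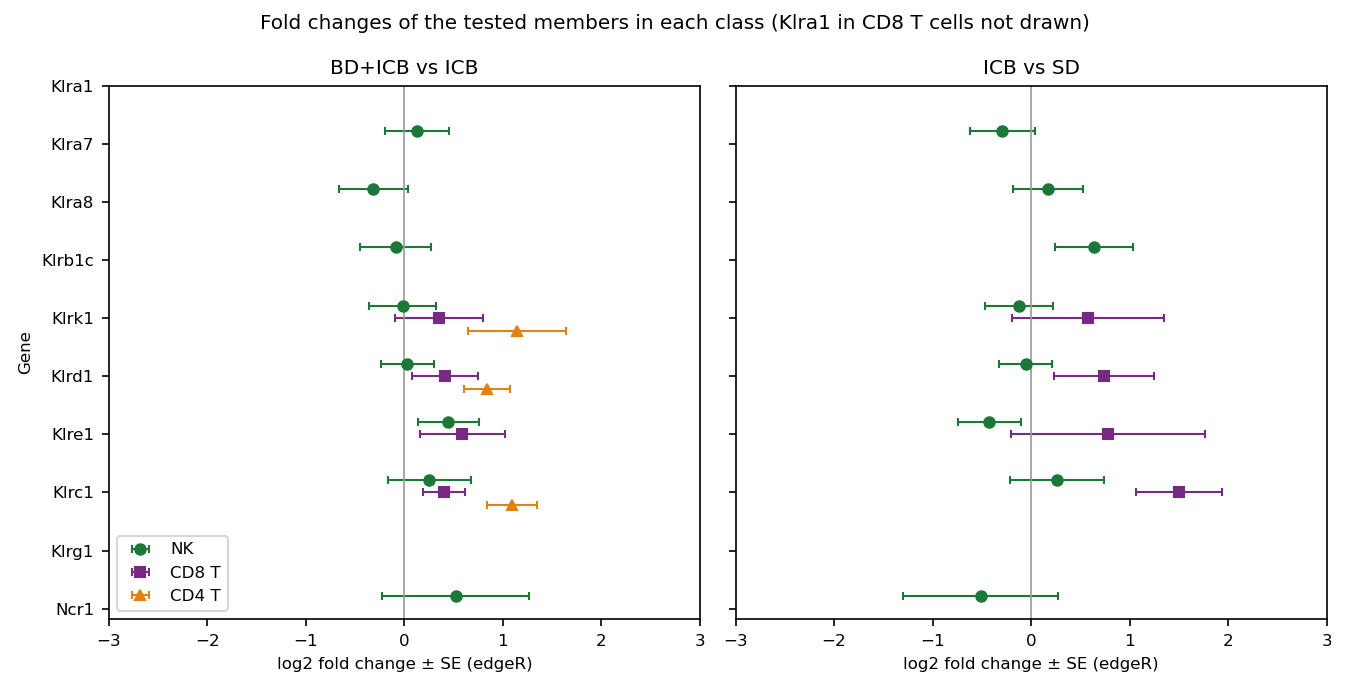
Log2 fold changes with SE of the members tested in NK, CD8 T and CD4 T cells, for BD+ICB against ICB (left) and ICB against SD (right, which also crosses libraries). Klra1 in CD8 T cells is not drawn because the ICB tumours were at 0. In CD4 T cells Klrc1 lies at 1.09, and the NK values lie within 0.64 of 0.

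The diet without blockade could not be tested in a class, since the BD tumours held 8, 0 and 3 NK cells and 9, 0 and 1 CD8 T cells. In the NK cells of BD tumours Klra7 had 463 and 300 CPM, against 299, 367 and 254 CPM in SD. Klrd1 had 617 and 600 CPM in BD, against 708, 636 and 424 CPM in SD, and Klrk1 had 377 and 360 CPM in BD, against 324, 183 and 367 CPM in SD. For Klrd1 and Klrk1 the BD values were close to or within the SD range.

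Klrg1 in regulatory T cells is given by counts, since only 1 tumour held 10 of these cells. A Klrg1 UMI was found in 6 of 9 cells in BD+ICB, with 12 UMIs, and in 1 of 11 cells in ICB, with 1 UMI. It was found in 6 of 11 cells in BD, with 15 UMIs, and in 2 of 8 cells in SD, with 4 UMIs. These cells are pooled over tumours, and the treatments were not tested against each other. Depth also differed, since the 2 cells of BD+ICB replicate 1 had a median of 16382 UMIs. The medians were 3256 and 3149 UMIs in the other BD+ICB tumours, and 6219 and 4368 UMIs in ICB replicates 1 and 3. Of the 15 regulatory T cells with a Klrg1 UMI, 14 had an Ikzf2 UMI, against 20 of 24 without. Foxp3 showed the other order, being found in 9 of the 15 cells with a Klrg1 UMI, against 17 of the 24 without. Neither the Ikzf2 nor the Foxp3 difference was tested.

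Of 19 further killer lectin genes 15 were in the expression table. Klra4, which encodes the activating receptor Ly49D, had 278 CPM in NK cells, against 7.16 CPM in CD8 T cells, and Klrb1b had 249 against 18.7 CPM. Klrc2 (NKG2C) had 100 CPM in NK cells and 125 CPM in both CD8 and CD4 T cells, and Klri2 had 98.1 CPM in NK and 74.4 CPM in CD8 T cells. Of these genes 5 were tested in NK cells and 1 was called. Klra9, which encodes Ly49I, had 145 and 167 CPM in ICB tumours with at least 10 NK cells, against 25.6 and 12.2 CPM in SD (log2 fold change 2.75 ± 0.85, edgeR adjusted p = 0.0269). It had 9.04 and 44.1 CPM in BD+ICB (-2.40 ± 0.75 against ICB, adjusted p = 0.164). The Klra9 call held under 8 of 14 settings, with adjusted p from 0.00326 to 0.395, and was lost without any of the 2 ICB or 2 SD tumours (0.0732 to 0.395), with at least 5 cells per tumour (0.229) and with a replicate block (0.177). With NK and T cells merged, Klra9 fell in BD+ICB against ICB (log2 fold change -3.56 ± 0.53, adjusted p = 4.99e-05), where NK cells were 8.13% of the cells in BD+ICB and 13.4% in ICB. Among merged T cells Klrc2 rose in ICB against SD (1.62 ± 0.43, adjusted p = 0.0409). In CD8 T cells 3 of these genes were tested and in CD4 T cells 2, and none was called.

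Markers of other cells and states moved with the NK groups as well. Of 4 tested myeloid markers 1 was called in each contrast, Cd14, with a log2 fold change of -2.72 ± 0.46 in BD+ICB against ICB (edgeR adjusted p = 9.86e-04) and 4.43 ± 0.62 in ICB against SD (adjusted p = 2.02e-06). The 9 myeloid markers summed to 181 to 852 CPM in BD+ICB, 883 to 2580 CPM in ICB and 392 to 1308 CPM in SD. Summed proliferation genes did not overlap between groups, at 54.3 to 73.5 CPM in BD+ICB, 124 to 179 CPM in ICB and 247 to 281 CPM in SD, with 1 gene tested and none called. Of the 1833 genes tested, 19.9% were lower without overlap in BD+ICB than in ICB, and 14.2% in ICB than in SD. Summed dissociation genes were 3459 to 4358 CPM in ICB, above BD+ICB (2425 to 3074 CPM) and SD (2926 to 3252 CPM). Other summed lists differed without overlap too. Regulatory T and T cell markers were higher in BD+ICB than in ICB. Tumour and stroma markers were lowest in ICB. Gamma-delta T and innate lymphoid markers were higher in ICB than in SD. Of single genes, 16.7% were higher without overlap in BD+ICB than in ICB, and 29.6% in ICB than in SD. The part of any of these lists in the NK values of Klra9 and of Xcl1, described below, was not tested.

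The adaptors followed the classes. Tyrobp (DAP12) had 1858 CPM in NK cells, against 146 CPM in CD8 T cells, and Fcer1g had 1688 against 151 CPM. Hcst (DAP10), through which NKG2D signals, had 435 CPM in NK cells, 671 CPM in CD8 and 562 CPM in CD4 T cells, and Inpp5d (SHIP1) had 142 CPM in NK cells. None of the adaptor and signalling genes was called in NK (6 tested), CD8 T (17 tested) or CD4 T cells (11 tested), while with NK and T cells merged Syk fell in BD+ICB against ICB (log2 fold change -1.45 ± 0.36, edgeR adjusted p = 0.0310) and Lcp2 rose in ICB against SD (1.15 ± 0.32, adjusted p = 0.0417). Ligand genes were also without a call, with 6 tested in each class. Of these H2-K1 was highest in regulatory T cells (4434 CPM) and H2-D1 in cDC_Batf3+ (3512 CPM), and B2m was highest in Mono_Ifit+ (7126 CPM). The NKG2D ligand gene Ulbp1 was highest in Prof_cancer, at 56.2 CPM.

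Of 42 genes of the NK and cytotoxic programme, all were in the table and 21 were tested in NK cells. Gzma, a granzyme gene, had 4320 CPM in NK cells, against 568 CPM in CD8 T cells, and Il2rb had 1319 against 744 CPM. Ccl5 had 3904 CPM in NK and 4507 CPM in CD8 T cells, and Nkg7 had 1556 and 1965 CPM there. Xcl1, a chemokine gene, rose in BD+ICB against ICB, with 723 and 434 CPM against 189 and 298 CPM (log2 fold change 1.32 ± 0.30, edgeR adjusted p = 0.00865). It fell in ICB against SD, where SD had 1433 and 1137 CPM (-2.60 ± 0.29, adjusted p = 5.45e-13). With at least 5 cells per tumour neither Xcl1 call passed (adjusted p = 0.999 and 0.915). The first was also lost with DESeq2 (0.537), with own demultiplexing (0.670), with the tumours of the library alone (0.0543), without BD+ICB replicate 1 (0.661) and without ICB replicate 1 (0.525). In CD8 T cells, of 36 tested, Gzmb (1.13 ± 0.22, adjusted p = 0.0231) and Cxcr6 (0.71 ± 0.17, adjusted p = 0.0367) rose in BD+ICB against ICB. The Gzmb call was lost without BD+ICB replicate 2 or 3 or ICB replicate 2 or 3 (0.0616 to 0.176), and the Cxcr6 call without any BD+ICB or ICB tumour (0.0667 to 0.308), with at least 5 cells per tumour (0.0827), with the stricter hashtag rule (0.167) and with own demultiplexing (0.316). The myeloid markers that were lower in the CD8 T cells of BD+ICB tumours, given above, moved with these genes. In ICB against SD 3 rose and 2 fell there. In CD4 T cells 1 of 17 was called, Ccl3, with a log2 fold change of -2.88 ± 0.43 (adjusted p = 0.00506), which did not pass without BD+ICB replicate 2 (0.0586) or ICB replicate 1 (0.0642).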

How the data were processed

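Leukocytes from a Percoll gradient of each tumour were hashtagged, pooled and sequenced as droplet single-cell RNA. The authors deposited raw UMI counts per gene and cell, and per the file headers the matrices came from Cell Ranger 6.1.1. According to the submitters' processing notes, R 4.1 and mm10 were also used. Cell classes, treatments and tumours are other text labels deposited by the authors in a table of cells, and how they were made is not given in the sources used here. Whether doublets were removed is not given, and no doublet caller was run. All 5749 cells had their tumour's hashtag as the highest, and the deposited counts equalled those of the matrices.

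Counts were summed per tumour and class, keeping tumours with at least 10 cells, and tested with edgeR 4.0.16 (R 4.3.3; TMM, filterByExpr, robust quasi-likelihood test, one mean per treatment), with Benjamini-Hochberg adjustment over the genes tested in a class and a threshold of 0.05. Tests are two-sided. Merged classes were fitted in the same way. CPM are counts scaled to 1000000 UMIs. Shares of cells carry exact Clopper-Pearson 95% intervals, and levels from summed counts carry exact Poisson intervals; both cover counting error only, as does the limit of 3 counts that a count of 0 allows. Alternatives were DESeq2 1.42.0, RLE size factors, dropping the filter on low counts, minimums of 5 and 20 cells, cells of at least 1000 UMIs, a stricter hashtag rule (856 of the 899 cells), an own demultiplexing of the matrices (9465 cells), a replicate block, the tumours of 1 library alone, and leaving out each tumour. The models were tested on simulated data for BD+ICB against ICB, with 200 changed genes. Of 2-fold changes, 29% were recovered in NK cells, 59% in CD8 and 53% in CD4 T cells. Of 4-fold changes, 80%, 96% and 97% were recovered, with 10, 14 and 9 false calls.

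Named genes were drawn from the 10 members, the 3 genes most like each, and from each gene list up to 4 called genes and the 4 highest in NK cells (for ligands, in any class). Not every gene that meets this rule is named. The members and lists were chosen with earlier results of these data known. A called gene of the cytotoxic list is not reported here. Promoter windows are RefSeq sequences of GRCm38.p6. Python 3.11.15 with pandas 2.3.3, scipy 1.17.1 and matplotlib 3.10.9 was used.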

Additional observations from a re-analysis of the deposited data

How the results depend on the processing

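The NK results rest on few cells: 2 tumours a group passed the minimum of 10 cells, no member was called in NK cells under any setting, and the signs of small fold changes moved. Where leaving out a tumour left 1 in a group, the spread was pooled over groups and the lone tumour is assumed to vary like the others. The cause of each change below was not tested, except that dropping the filter on low counts tests more genes.

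Genes called in NK cells for BD+ICB against ICB (6) became 0 with DESeq2 or at least 5 cells per tumour, 13 with no filter on low counts and 3 with the stricter hashtag rule, and genes called for ICB against SD (98) became 1 with at least 5 cells. For BD+ICB against ICB, CD8 T cells (47) gave 127 with no filter and 4 with the stricter hashtag rule or own demultiplexing. CD4 T cells (21) gave 71 with no filter, 47 with at least 20 cells and 10 with own demultiplexing. Merged T cells (40) gave 120, 10 and 8 with no filter, the stricter rule and own demultiplexing, and merged NK and T cells (67) gave 147, 19 and 7. Merged T cells for ICB against SD (81) gave 139 with DESeq2 and 145 with no filter.

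Called genes of the receptor system lists in NK cells for BD+ICB against ICB (1) became 0 with DESeq2, at least 5 cells or the tumours of the library alone, and 2 with no filter or the stricter rule. For ICB against SD (2) they became 1 with DESeq2 and 0 with at least 5 cells. In CD8 T cells for BD+ICB against ICB (3) they became 11 with no filter, 5 with at least 20 cells or the tumours of the library alone, and 1 with the stricter rule or own demultiplexing. For ICB against SD (5) they became 14 with no filter, 11 with at least 5 cells and 3 with own demultiplexing. In CD4 T cells (1) they became 3 with no filter or at least 20 cells and 0 with the stricter rule.

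The replicate numbers did not pair the tumours, since deviations of same-numbered tumours correlated between -0.15 and 0.06. With a replicate block the genes called were 18 and 21 in NK cells for the contrasts above, 78 in CD8 T cells and 90 in merged T cells for BD+ICB against ICB, and the list genes called were 1 in NK cells for ICB against SD, 8 in CD8 and 2 in CD4 T cells. The log2 fold changes in NK cells for BD+ICB against ICB became 0.15 for Klrb1c, 0.39 for Klrk1 and -0.018 for Klrd1 with the block, and the adjusted p of Klrc1 in CD4 T cells was 0.0568.

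Other signs turned in NK cells for BD+ICB against ICB: Klrk1 was 0.0067 with RLE size factors, 0.0061 with the stricter rule and 0.19 with own demultiplexing; Klra7 was -0.0062 and -0.11 with the last 2; Klrd1 was -0.44 with at least 5 cells and -0.073 with own demultiplexing; Klrc1 was -0.053 and -0.24 there. With at least 5 cells ICB against SD gave 0.25 for Klrk1, 0.48 for Klrd1 and 0.28 for Ncr1. Klra7 in merged cells for BD+ICB against ICB was 0.078 with own demultiplexing. Ncr1 in CD8 T cells averaged 5.53 CPM with at least 5 cells.

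Thinned to 1000 UMIs, the share of NK cells with a UMI was 5.30% for Klra1, 21.2% for Klra7, 18.9% for Klra8, 22.0% for Klrb1c, 20.5% for Klrk1, 45.5% for Klrd1, 35.6% for Klre1, 9.09% for Klrc1, 1.52% for Klrg1 and 8.33% for Ncr1. At 2000 UMIs it was 33.6% for Klra7, 26.0% for Klra8, 30.5% for Klrb1c, 45.8% for Klrk1, 65.6% for Klrd1, 48.9% for Klre1, 16.0% for Klrc1 and 13.0% for Ncr1.

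Leaving out 1 tumour at a time gave these lowest and highest values. Genes called for BD+ICB against ICB were 0 to 15 in NK cells, 16 to 72 in CD8, 4 to 29 in CD4, 18 to 73 in merged T and 24 to 82 in merged NK and T cells. For ICB against SD they were 74 to 112 in NK cells, 8 to 120 in CD8, 39 to 104 in merged T and 118 to 197 in merged NK and T cells. List genes called were 0 to 2 in NK, 0 to 8 in CD8 and 0 to 2 in CD4 T cells for BD+ICB against ICB, and 1 to 3 in NK and 1 to 6 in CD8 T cells for ICB against SD. Log2 fold changes in NK cells for BD+ICB against ICB ran from -0.53 to 0.57 for Klra7, -0.66 to 0.48 for Klra8, -0.16 to 0.047 for Klrb1c, -0.23 to 0.23 for Klrk1, -0.28 to 0.35 for Klrd1, -0.0066 to 0.56 for Klrc1 and -0.51 to 2.71 for Ncr1. For ICB against SD they ran from -0.66 to 0.023 for Klra7, -0.63 to 0.52 for Klra8, -0.48 to 0.29 for Klrk1, -0.37 to 0.12 for Klrd1, -0.082 to 0.48 for Klrc1 and -2.70 to 0.026 for Ncr1. They ran in CD8 T cells from -0.018 to 1.04 for Klre1 (BD+ICB against ICB) and -0.21 to 1.95 for Klrk1 (ICB against SD), and in merged NK and T cells from -0.47 to 0.056 for Klra7 (BD+ICB against ICB).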

Other observations

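Klra4, a Ly49 gene of NK cells, was also counted in cells that are not lymphocytes. It had 264 CPM in the class Prof_cancer, where 98.6% of 140 cells had a UMI at a median depth of 108620 UMIs, and 171 CPM in the class Mesenchymal. In NK cells it had 278 CPM. Klra2, another Ly49 gene, was counted over most myeloid classes. It had 149 CPM in DC_Nos2+, 136 CPM in Mono_Ifit+, 125 CPM in Mono_Vcan+ and 117 CPM in Mac_M1, against 2.06 CPM in NK cells. The source of these reads was not tested.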
